A study of Mus musculus with 6 samples.

Results

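Transcripts of 8 transcription factor genes of the oligodendrocyte lineage, defined by their symbols, were measured among 24421 genes listed in 6 count tables. They were the basic helix-loop-helix (bHLH) factors Olig1 and Olig2, the homeobox factors Nkx2-2, Nkx6-1 and Nkx6-2, and the E-proteins Tcf3, Tcf4 and Tcf12. All 8 were listed, and 7 of them were among the 15906 genes that passed edgeR's filter on low counts. Nkx6-1 did not pass. RNA-seq was done on oligodendrocyte progenitor cells (OPCs) of mice, dividing cells from which myelinating oligodendrocytes arise. The control group was 3 libraries of genotype Prrc2bf/f, with both Prrc2b alleles floxed and no Cre. The knockout group was 3 libraries of genotype Prrc2bf/f; Olig2-Cre, so the floxed alleles were shared by both groups and the Cre was carried by the knockout group only. Cells came from the cortex of C57BL/6J pups at postnatal day 4, were panned against GalC and then onto O4 antibody, and were cultured in a medium for proliferation, although the series' design text speaks of brain tissue. Olig2-Cre acts wherever Olig2 is or was expressed, which is not limited to OPCs, and its allele (whether Cre replaces or leaves intact an Olig2 copy) is not stated in the labels. No library had the Cre without floxed Prrc2b, so for every difference below, and for Olig2 above all, loss of Prrc2b and the presence of the Cre allele cannot be told apart. Whether the replicates are separate animals is not said in the labels, so a p-value here speaks only of spread between libraries, which may be technical.

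Olig1 and Olig2 are neighbouring bHLH genes, and Olig2 is required for the oligodendrocyte lineage to form. Olig proteins bind the short E-box sequence on DNA, often as dimers with the broadly expressed E-proteins, which also pair with proneural bHLH factors. Id proteins take E-proteins out of these dimers because they have no DNA-binding region. Nkx2-2 and the Nkx6 factors are homeobox repressors set up by Sonic hedgehog in the ventral neural tube, where Nkx6 factors help switch on Olig2, and Nkx2-2 later promotes oligodendrocyte differentiation. Tcf4 here is the E-protein E2-2, not the Wnt pathway factor Tcf7l2 that is sometimes given the same name.

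Promoter sequences are shown for Olig2 and Nkx2-2, which were both much lower in the knockout libraries numbered 2 and 3, with the E-box CANNTG that the bHLH members bind in capitals. Each runs 5′ to 3′ on the gene's strand from 250 bases before to 50 after the annotated start, from RefSeq on GRCm38.p6. Olig2 is on the plus strand at chr16:91225300-91225599 and Nkx2-2 on the minus strand at chr2:147186353-147186652. The Nkx2-2 window lies inside the GENCODE span of the gene, 147177546 to 147194243. It therefore belongs to a start within that span, not to its upstream end. The Olig2 window crosses the upstream end of the GENCODE span of Olig2, at 91225457, and its annotated start also lies within the span. The table of promoters held 6 of the 8 genes, and those without an entry were Olig1 and Tcf4.
Olig2: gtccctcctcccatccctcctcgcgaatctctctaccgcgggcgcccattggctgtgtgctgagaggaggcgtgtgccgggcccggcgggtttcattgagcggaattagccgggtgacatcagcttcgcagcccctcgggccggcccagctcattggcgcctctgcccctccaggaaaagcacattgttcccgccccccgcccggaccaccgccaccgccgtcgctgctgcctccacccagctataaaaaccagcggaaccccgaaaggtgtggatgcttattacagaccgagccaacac
Nkx2-2: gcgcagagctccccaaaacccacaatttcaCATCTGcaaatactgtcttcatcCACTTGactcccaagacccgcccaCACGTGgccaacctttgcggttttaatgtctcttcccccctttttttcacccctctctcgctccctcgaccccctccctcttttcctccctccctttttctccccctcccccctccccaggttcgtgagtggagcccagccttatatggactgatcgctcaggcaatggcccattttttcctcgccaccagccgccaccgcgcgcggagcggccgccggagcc
CANNTG, which reads the same pattern on both strands, had 0 matches in the Olig2 window and 3 in the Nkx2-2 window, of which the first, CATCTG, is the reverse complement of CAGATG. Of all 32851 promoters of this length in the table, 72.3% held CANNTG and 17.2% held CAGATG on either strand, so these letters are common and their presence or absence is a description only.

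Prrc2b, the targeted gene, stood at 933, 1111 and 926 CPM in control libraries 1 to 3 and at 649, 824 and 758 CPM in knockout libraries. CPM are read pair counts scaled to a common library size, normalised by edgeR's trimmed mean of M-values (TMM). All knockout values were below all control values, and same-numbered libraries stood at 0.696, 0.742 and 0.818 of control, so most of the transcript remained. Gene counts per library ranged from 26015604 to 28114968. The edgeR quasi-likelihood test, with group as its only term, called 0 of 15906 genes (0%) and 0 of the 7 tested members at an adjusted p under 0.05, with 274 genes and 0 members at an unadjusted p under 0.05. Limma-voom called 0 genes (0%) and DESeq2 called 20 (0.126%), with 0 members in either. What the replicate numbers mark is not stated in the labels. Same-numbered control and knockout libraries deviated together, so the replicate number was also fitted as a block. This pairing was chosen from these same data, and the p-values with the block rest on it. That fit called Prrc2b as lower, at -0.41 on the log2 scale (± 0.06 SE, adjusted p of 0.00688 in edgeR), which the fit with group only did not. Of all tested genes the blocked fit called 3.8%, 2.23% as lower and 1.57% as higher in the knockout. Among the members it called 1, Tcf3, as lower. Blocked DESeq2 (4.48% of genes) and blocked limma-voom (4.48%) each called 1 member as well, again Tcf3. Control and knockout values overlapped for all 8 members, while they did not overlap for 6.34% of tested genes. Of the 7 tested members, 3 (Olig2, Tcf3 and Tcf4) were lower in all 3 same-numbered pairs, as were 20.9% of all tested genes. In the blocked fit the members' median log2 fold change was -0.07, against 0.00 over all tested genes.

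**Figure D1:**
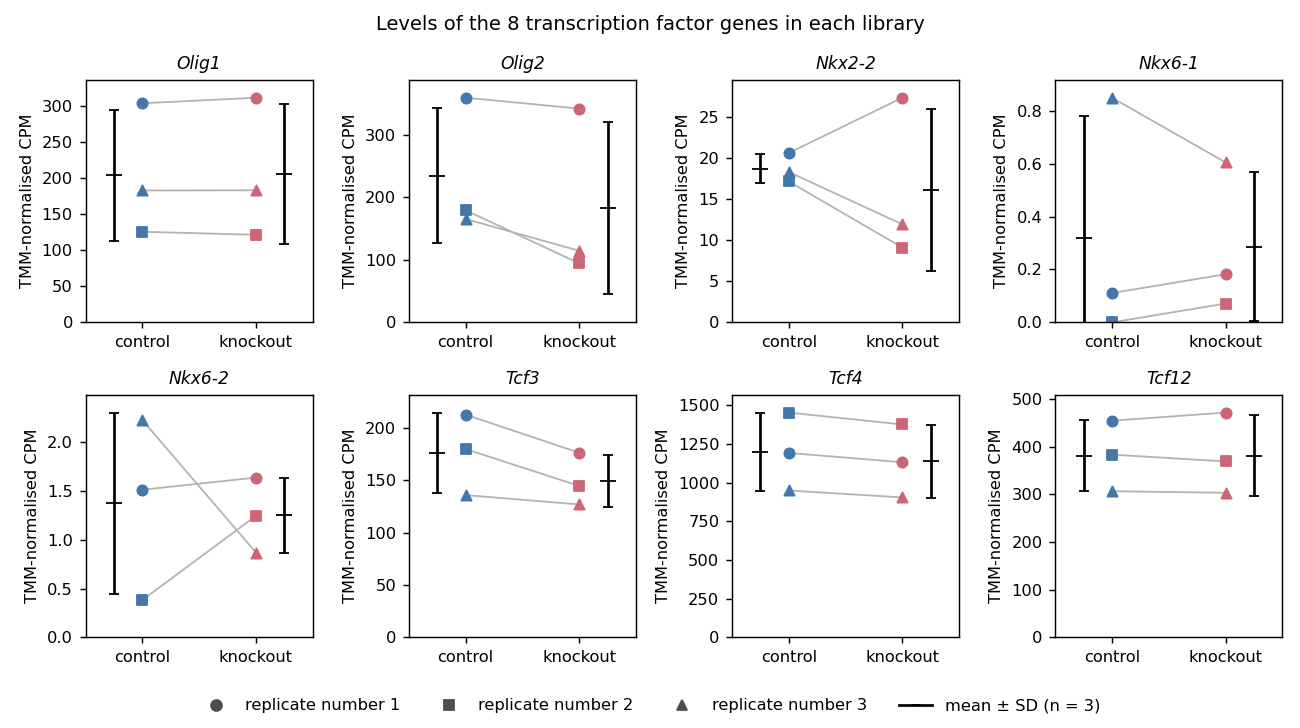
Level of each of the 8 genes in every library, as TMM-normalised CPM on a linear axis from 0. Points joined by a line share a replicate number, and black bars beside them are the mean ± SD (n = 3), clipped at 0 for Nkx6-1. Library number 1 is highest for Olig1 and Olig2 in both groups, and the Olig2 lines of numbers 2 and 3 slope down while the Olig1 lines are nearly flat.

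Set against transcript length, Olig1 and Olig2 were the highest members except for Tcf4, whose annotated exons are so extended that its place depends on the length used. Over all annotated exons, control levels were 94.3 ± 42.0 CPM per kilobase for Olig1 and 92.9 ± 42.8 for Olig2 (SD, n = 3). They were 43.7 ± 9.21 for Tcf4, 43.6 ± 9.56 for Tcf3 and 24.6 ± 4.77 for Tcf12. Nkx2-2 followed at 6.51 ± 0.614, Nkx6-2 at 0.721 ± 0.488 and Nkx6-1 at 0.102 ± 0.147 CPM per kilobase. Olig1 and Olig2 did not differ beyond their spread, nor did Tcf4 and Tcf3, and the same order held in the knockout libraries. Per kilobase of the longest annotated transcript, Tcf4 came first instead, at 140 CPM per kilobase in control libraries, and Tcf12 and Tcf3 were level at 60.6 and 59.7.

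Olig2 showed the largest difference among the members with a level above 1 CPM per kilobase. The gene (ENSMUSG00000039830.9) is found on the plus strand of chromosome 16 (GRCm38, 91225457 to 91228677). Its level was 360, 180 and 166 CPM in control libraries 1, 2 and 3 and 342, 94.5 and 115 CPM in the knockout libraries of the same numbers. Both libraries numbered 1 were high and close to each other, while knockout libraries 2 and 3 lay below every control library. The pairs stood at 0.952, 0.526 and 0.692 of the control level. Fitted without the block, the difference was -0.35 on the log2 scale (± 0.55 SE, adjusted p of 1.00 in edgeR), and with it -0.50 (± 0.12 SE, adjusted p of 0.0533 in edgeR). After correction for GC content the blocked value was -0.43 (adjusted p of 0.103 in edgeR). Over the 9 blocked settings with all pairs, 1 called Olig2. The adjusted p ran from 0.00367 (edgeR, no filter on low counts) to 0.324 (DESeq2, -0.51 ± 0.24 SE). The size of the difference also depended on the pairs included. The blocked value was -0.72 with pair 1 left out (adjusted p of 0.000501 in edgeR), -0.29 with pair 2 left out (adjusted p of 0.0754 in edgeR) and -0.49 with pair 3 left out (adjusted p of 0.165 in edgeR). Without control library 1, the fit with no block gave a value of the other sign, 0.09 (SE 0.57).

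Olig1 (ENSMUSG00000046160.6, chromosome 16 from 91269772 to 91271933, plus strand) lies 41.1 kb from Olig2 on the same strand. Its levels were 304, 126 and 183 CPM in control libraries and 311, 121 and 183 CPM in knockout libraries. Each knockout library was within a few percent of its same-numbered control, with ratios of 1.02, 0.966 and 1.00, while the libraries of one group spanned more than that by far. Its blocked log2 fold change was 0.00 (± 0.04 SE, adjusted p of 0.977 in edgeR). After correction for GC content it was 0.14 (edgeR adjusted p = 0.111).

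**Figure D2:**
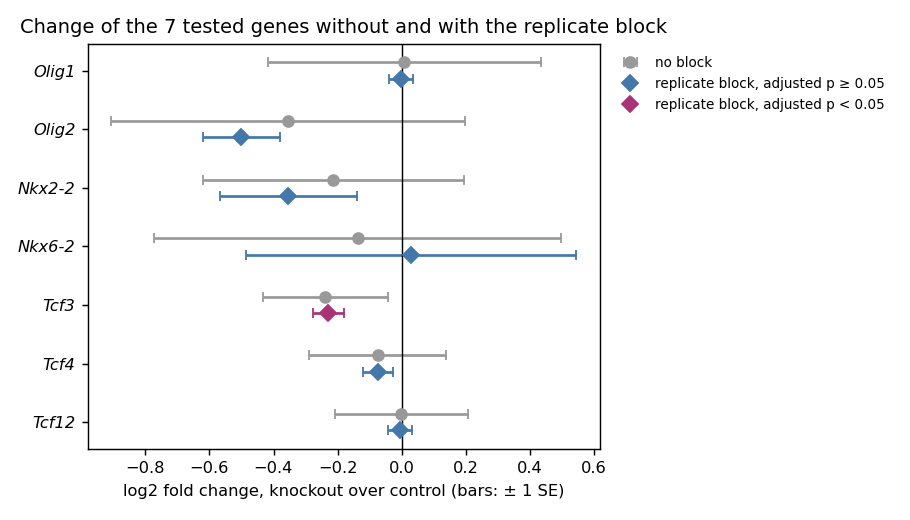
Log2 fold change, knockout over control, of the 7 tested genes, with bars of ± 1 SE. Grey circles are the fit with group only and diamonds the fit with the replicate block. Bars are shorter with the block, as for Olig1, from an SE of 0.43 to 0.04, and Tcf3 alone passes in the blocked fit.

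Because both Olig genes are counted in the same libraries, their ratio does not depend on library scaling. There were 1.18, 1.43 and 0.906 Olig2 counts per Olig1 count in control libraries and 1.10, 0.779 and 0.626 in knockout libraries. The ratio was lower in all 3 pairs, by very unequal amounts, at 0.928, 0.545 and 0.691 of its control value, and the groups overlapped. The mean difference was -0.51 on the log2 scale (SD between pairs 0.39, n = 3). An exact two-sided permutation test gave p = 0.2 where the smallest p possible is 0.1, and an exact sign-flip test over pairs gave p = 0.25, the smallest that 3 pairs allow. In bulk RNA, fewer cells of a type and less RNA per cell cannot be told apart, so Olig2 was also set against 10 other OPC transcripts (among them Pdgfra, Cspg4, Ptprz1 and Sox10). This ratio was 0.101, 0.0855 and 0.0497 in control and 0.0790, 0.0434 and 0.0328 in knockout libraries, again lower in all 3 pairs (log2 difference -0.65, SD between pairs 0.31, exact permutation p = 0.2). Ptprz1, a receptor phosphatase, held the largest part of the marker sum, at 2235, 1372 and 2318 CPM in control and 2722, 1514 and 2491 CPM in knockout libraries, and was higher in all 3 pairs. The markers did not all move alike. Pdgfra pairs stood at 1.04, 1.10 and 1.06 of control, those of Sox10 at 1.15, 0.621 and 0.821, and those of C1ql1 at 0.952, 0.811 and 0.775. The ratio to the sum thus does not stand for a ratio to each marker, and Olig2 was not set against single markers. With Ptprz1 and Pcdh15 left out of the markers the log2 difference was -0.54. For Olig1 the same ratio went from 0.0855, 0.0597 and 0.0549 to 0.0718, 0.0557 and 0.0524, a smaller log2 difference of -0.14 that was not tested. The OPC markers themselves summed to between 2102 and 3549 CPM in control and between 2178 and 4332 CPM in knockout libraries, none of the 10 was at 0 in any library, and 0 passed in the blocked edgeR test.

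**Figure D3:**
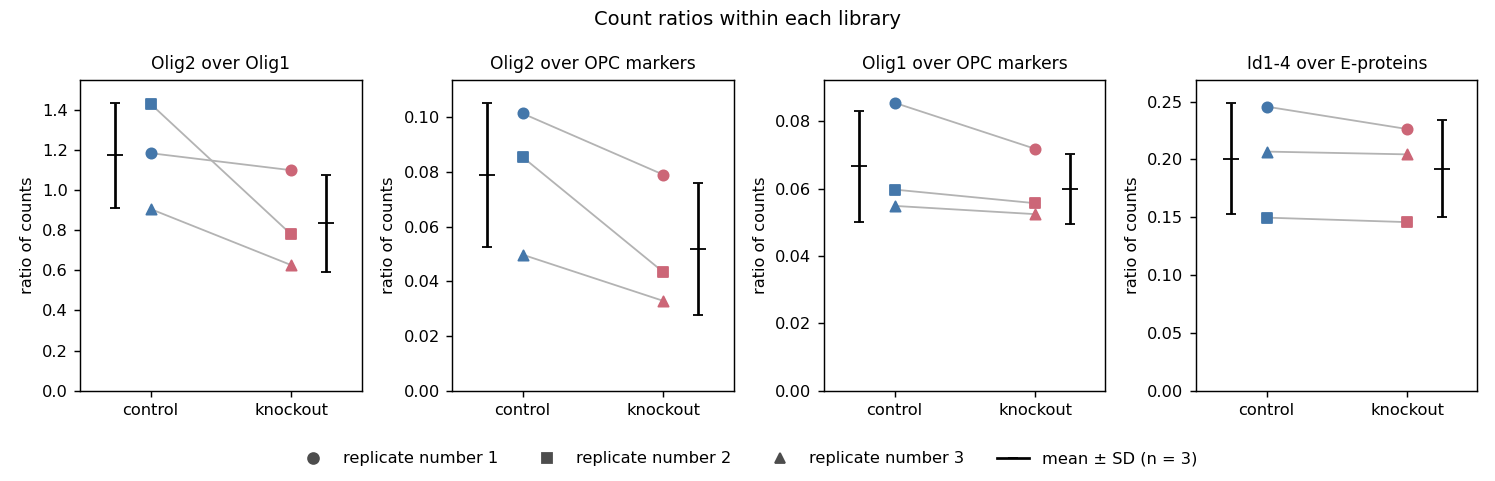
Ratios of counts within each library on linear axes from 0, with same-numbered libraries joined and the mean ± SD (n = 3) in black. Olig2 over Olig1 and Olig2 over the 10 summed OPC markers are lower at the knockout end of every line, and the groups overlap in all 4 panels.

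Genes around Olig2 were examined because the Cre is named for Olig2, although the labels do not state whether its allele lies at this locus. Within 1000 kb there were 29 listed genes besides Olig2, Olig1 included, of which 27 were tested. In the blocked edgeR test 1 rose, 0 fell and 26 did not pass, with a median log2 fold change of -0.01. These are 3.7% called, about the 3.8% called over all tested genes. The riser was Slc5a3, a myo-inositol transporter gene 830 kb away that went from 86.3 ± 30.5 to 112 ± 31.4 CPM (SD, n = 3), a log2 difference with the block of 0.40 (± 0.06 SE, adjusted p of 0.0109 in edgeR). It lies at the same place as Mrps6, and the labels do not tell how reads in the overlap were assigned. Next by p were the predicted transcript 4932438H23Rik (0.94 ± 0.30 SE, adjusted p of 0.124 in edgeR) and Itsn1, an endocytosis adaptor (-0.11 ± 0.04 SE, adjusted p of 0.165 in edgeR). The interferon receptor genes Ifnar1 and Ifnar2, chosen here after their values were seen, were at 0.03 and -0.02. Whether the locus itself was targeted cannot be read from these values.

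**Figure D4:**
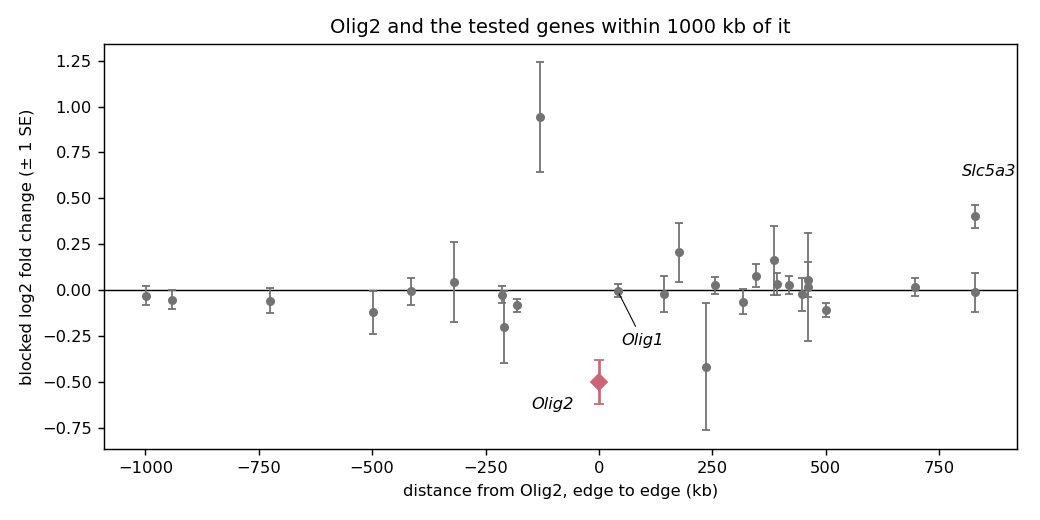
Blocked log2 fold change (± 1 SE) of Olig2 (diamond) and of the 27 tested genes within 1000 kb, against their distance from Olig2. Olig2 is at -0.50 while Olig1 beside it is at 0.00, and Slc5a3 at 0.40 is the gene that passes.

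Nkx2-2 (ENSMUSG00000027434.11, chromosome 2 from 147177546 to 147194243, minus strand) was expressed at a lower level. Control libraries held 20.6, 17.2 and 18.3 CPM and knockout libraries 27.4, 9.11 and 11.9 CPM. The control values lay close together, and knockout library 1 was above all of them while knockout libraries 2 and 3 were below all of them. Numbers 2 and 3 stood at 0.531 and 0.651 of control, and number 1 went the other way at 1.33. The libraries also differed in 7 summed markers of mature oligodendrocytes, at 186, 711 and 145 CPM in control and 507, 376 and 182 CPM in knockout libraries. That sum was higher in the knockout in numbers 1 and 3 and lower in number 2. Its part in the values of Nkx2-2 and Olig2 was not tested. The blocked log2 fold change of Nkx2-2 was -0.35 (± 0.21 SE, adjusted p of 0.438 in edgeR). Without the pair numbered 1 it was -0.76 (edgeR adjusted p = 0.0229), and without the pairs numbered 2 and 3 it was -0.09 and -0.22. Its counts, 256 to 752 per library, far exceeded those of the antisense gene Nkx2-2os, which had 4 to 19. A further antisense gene, 6430503K07Rik, held 31 to 99 counts, and without a stated strand setting reads of these overlapping genes cannot be told apart.

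The Nkx6 genes were near the limit of detection in these cortical cells. Nkx6-2 (ENSMUSG00000041309.17, chromosome 7 from 139579376 to 139582797, minus strand), a marker of later oligodendrocytes, had 41, 10 and 63 counts in control and 45, 35 and 23 counts in knockout libraries. Its pairs stood at 1.08, 3.27 and 0.390 of control and had no common direction. The blocked log2 fold change was 0.03 (± 0.52 SE, adjusted p of 0.983 in edgeR). The gene overlaps Inpp5a, on the other strand, which had 765 to 1021 counts. Nkx6-1 (ENSMUSG00000035187.10, chromosome 5 from 101658139 to 101664996, minus strand) had 3, 0 and 24 counts in control and 5, 2 and 16 counts in knockout libraries. Libraries numbered 3 held most of the counts in both groups. The 0 in control library 2 allows a level of up to 0.114 CPM (3 counts, counting error only). A difference in Nkx6-1 was not detectable at this depth.

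Among the E-proteins Tcf3 was lower in every pair, Tcf4 was slightly lower in every pair without passing, and Tcf12 was level. Tcf3, which encodes the splice forms E12 and E47, lies on chromosome 10 from 80409514 to 80433647 on the minus strand (ENSMUSG00000020167.14). Its levels were 213, 180 and 136 CPM in control and 176, 145 and 127 CPM in knockout libraries. The groups overlapped, and the pairs stood at 0.829, 0.804 and 0.934 of control. Without the block the log2 fold change was -0.24 (± 0.20 SE, adjusted p of 1.00 in edgeR). With the block Tcf3 fell, at -0.23 as log2 fold change (± 0.05 SE, adjusted p of 0.0373 in edgeR), and at 61.0% its longest transcript is rich in GC. After correction for GC content the value was -0.09 (± 0.05 SE, adjusted p of 0.395 in edgeR), and the call was also lost without the pair numbered 1 (edgeR adjusted p = 0.123) or 2 (edgeR adjusted p = 0.104).

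Tcf4 (ENSMUSG00000053477.17, chromosome 18 from 69343356 to 69689079, plus strand) had the most counts of the E-proteins. It stood at 1191, 1452 and 948 CPM in control and 1131, 1375 and 904 CPM in knockout libraries. Each pair was lower by nearly the same amount, at 0.949, 0.947 and 0.953 of control. That small difference, a log2 difference with the block of -0.07 (SE 0.05), was short of the threshold (adjusted p of 0.470 in edgeR). Tcf4 is also expressed in neurons and endothelial cells. The 10 neuronal markers summed to between 2303 and 3416 CPM in control and between 1953 and 3251 CPM in knockout libraries, and the 7 endothelial markers to between 19.0 and 84.0 and between 42.1 and 280 CPM. The endothelial sum was higher in the knockout in all 3 pairs. In the blocked edgeR test 6 of 7 endothelial markers rose and 0 fell (median log2 fold change 1.37), while 1 of 10 neuronal markers fell and 0 rose. Other cell types moved as well. Risers were 4 of 7 astrocyte markers, 4 of 6 ependymal and choroid plexus markers and 2 of 8 pericyte and fibroblast markers, and 0 markers of these types fell. Over all tested genes 1.57% rose and 2.23% fell. The astrocyte markers summed to between 1334 and 2412 CPM in control and between 1564 and 2851 CPM in knockout libraries, and the ependymal and choroid plexus markers to between 349 and 1875 and between 805 and 2743 CPM. None of these markers was at 0 in any library, and their part in the values of the 8 genes was not tested. Tcf12, or HEB (ENSMUSG00000032228.16, chromosome 9 from 71842688 to 72111871, minus strand), had 455, 383 and 307 CPM in control and 472, 369 and 303 CPM in knockout libraries. Its pairs stood at 1.04, 0.963 and 0.989 of control, with a log2 difference with the block of -0.01 (± 0.04 SE, adjusted p of 0.961 in edgeR).

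In the make-up of the E-protein pool the share of Tcf3 was lower and that of Tcf12 higher in the knockout in all 3 pairs. Tcf12 itself was level, with pairs at 1.04, 0.963 and 0.989 of control. By level per kilobase of annotated exon, Tcf3 made up 38.9% ± 2.84 (SD, n = 3) of the summed E-protein level in control libraries and 36.0% ± 2.91 in the knockout, and the pairs went from 42.0%, 36.4% and 38.2% to 37.9%, 32.6% and 37.4%. The share of Tcf4 was 39.1% ± 4.36 and 40.3% ± 5.04, and that of Tcf12 was 22.0% ± 1.62 and 23.8% ± 2.38. The group values of each share overlapped, and the shares were not tested. Their size depends on the length used. Per kilobase of the longest transcript, control levels were 140 CPM for Tcf4, 60.6 for Tcf12 and 59.7 for Tcf3, so Tcf4 would hold the largest share. There were 0.468, 0.469 and 0.443 Tcf3 counts per Tcf12 count in control libraries and 0.374, 0.392 and 0.419 in knockout libraries. For this ratio the groups did not overlap, but it was examined after the values were seen and was not tested. How often ratios of other genes do not overlap was not examined. The longest transcripts of Tcf3 and Tcf12 differ in GC content, at 61.0% and 44.4%. The ratio was not corrected for this, while GC correction moved the blocked log2 fold change of Tcf3 from -0.23 to -0.09.

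**Figure D5:**
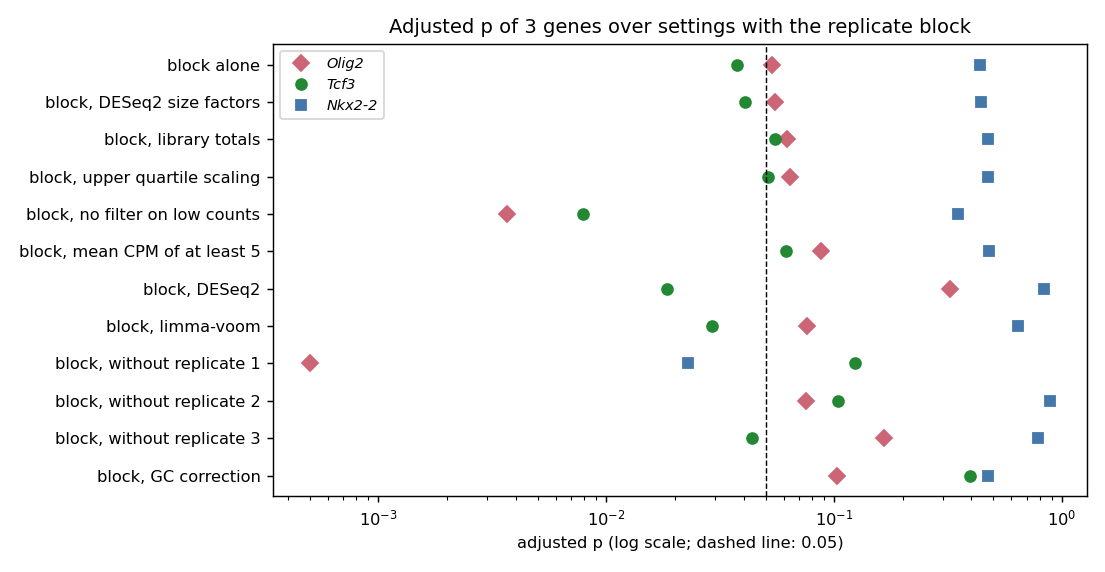
Adjusted p of Olig2, Tcf3 and Nkx2-2 in 12 settings that include the replicate block, on a log axis with a dashed line at 0.05. Tcf3 lies below 0.05 in 5 of the 9 settings with all pairs and Olig2 in 1, and leaving out the pair numbered 1 moves Olig2 and Nkx2-2 below the line and Tcf3 above it.

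Of the Id genes, whose products bind E-proteins, 1 of 4 fell in the blocked edgeR test and 3 did not pass (median -0.09). In the same test 2.23% of all tested genes fell. Id4 went from 108 ± 18.0 to 91.5 ± 12.9 CPM (SD, n = 3), a log2 difference with the block of -0.24 (± 0.05 SE, adjusted p of 0.0331 in edgeR). It lost the call when any pair was left out (edgeR adjusted p 0.131, 0.0804 and 0.101 without the pairs numbered 1, 2 and 3). The call was also lost with library totals, upper quartile scaling and a mean of at least 5 CPM (edgeR adjusted p 0.0573, 0.0523 and 0.0685). Id2 was at -0.09, Id1 at -0.10 and Id3 at 0.01. Counts of the 4 Id genes per E-protein count were 0.246, 0.150 and 0.207 in control and 0.226, 0.146 and 0.204 in knockout libraries. The pairs differed little, at 0.921, 0.974 and 0.988 of control, and the exact permutation test gave p = 0.7 for a log2 difference of -0.06.

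Of 22 tissue-restricted bHLH genes that can pair with E-proteins, 13 were tested, of which 2 fell, 0 rose and 11 did not pass (blocked median -0.07). Among all tested genes 2.23% fell. Neurod2, of excitatory neurons, went from 106 ± 99.7 to 67.8 ± 65.3 CPM (with the block -0.69 ± 0.07 SE, adjusted p of 0.00272 in edgeR). Bhlhe22, an Olig-related factor of neurons, went from 118 ± 65.3 to 85.2 ± 57.9 CPM (-0.54 ± 0.07 SE, adjusted p of 0.00606 in edgeR). Of the 5 interneuron precursor markers, 4 fell and 0 rose, and their part in these values was not tested. They summed to between 486 and 1524 CPM in control and between 366 and 1170 CPM in knockout libraries.

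Among 13 tested genes of E-protein adaptors and corepressors, 3 fell, 0 rose and 10 did not pass (blocked median -0.10). The share that fell over all tested genes was 2.23%. Ldb1, the LIM-domain binding adaptor, was at -0.18 (± 0.03 SE, adjusted p of 0.0236 in edgeR), Lmo1 at -0.46 (± 0.10 SE, adjusted p of 0.0320 in edgeR) and the Groucho-type corepressor Tle1 at -0.17 (± 0.04 SE, adjusted p of 0.0328 in edgeR). Without the pair numbered 3 all of these calls were lost (edgeR adjusted p 0.149, 0.221 and 0.123). Lmo1 and Tle1 also lost theirs without the pair numbered 1 (0.0690 and 0.117), and Tle1 without the pair numbered 2 (0.0860). Ldb1 lost its call after GC correction (edgeR adjusted p = 0.0543). With all pairs kept, Tle1 also lost its call with library totals, upper quartile scaling and a mean of at least 5 CPM (edgeR adjusted p 0.0633, 0.0577 and 0.0546). In blocked DESeq2 its adjusted p was 0.0550.

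Sonic hedgehog signalling, which induces Olig2 and Nkx2-2 in the embryo, showed 0 of 14 tested genes passing in either direction (blocked median -0.01). At the share of 3.8% over all tested genes, few or none would pass in a list of this length. The co-receptor Cdon was at -0.16 (± 0.04 SE, adjusted p of 0.0748 in edgeR), and the co-receptor Gas1 was at -0.16 (SE 0.07).

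Of the patterning homeobox and forkhead genes that share borders with the Olig and Nkx domains, 13 of 18 were tested. Of these 2 fell, 0 rose and 11 did not pass (blocked median -0.16), where 2.23% of all tested genes fell. Gsx1, of ventral forebrain progenitors and 1 of those that fell, was at -0.58 (± 0.11 SE, adjusted p of 0.0273 in edgeR). It lost the call when the pair numbered 1, 2 or 3 was left out (edgeR adjusted p 0.137, 0.0760 and 0.0591). After GC correction the call was lost as well (edgeR adjusted p = 0.0857). Irx1 was at -0.58 (± 0.18 SE, adjusted p of 0.122 in edgeR).

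Of 20 tested genes known as targets or partners of Olig2 and Nkx2-2, 1 fell, 0 rose and 19 did not pass (blocked median 0.00). That is 5% called, near the 3.8% called over all tested genes. Smarca4, the chromatin remodelling ATPase that works with Olig2, went from 394 ± 43.2 to 344 ± 37.0 CPM (with the block -0.19 ± 0.04 SE, adjusted p of 0.0266 in edgeR). It lost the call without the pairs numbered 1 (edgeR adjusted p = 0.170) or 3 (0.0733). Zfp536, a zinc finger repressor, was at -0.28 (± 0.09 SE, adjusted p of 0.119 in edgeR) and the Notch effector Hes5 at -0.21 (± 0.08 SE, adjusted p of 0.181 in edgeR).

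The genes whose pattern over the 6 libraries was nearest to a member were found by the root mean square difference of centred log2 CPM, over the 10296 genes whose mean reached 10 CPM. For Olig1 they were Spry2, Rbm20, Phlda1, Ndp and Cdc14a, at 0.0838 to 0.114, where the median over all genes was 0.562. Olig2 had no gene as near. Its closest were Elfn1, Ier5l, Abtb2, Chst3 and Sox10, at 0.244 to 0.285 against a median of 0.732. Nkx2-2 was nearest to Sox10 at 0.164, then to Prkcq, Rtkn, Chst3 and Sox21 at up to 0.237. Sox10, a transcription factor of the whole lineage, stood at 117, 88.5 and 77.0 CPM in control and 135, 55.0 and 63.2 CPM in knockout libraries. Like Nkx2-2, it was above its control in number 1 and below it in numbers 2 and 3 (with the block -0.25 ± 0.13 SE, adjusted p of 0.357 in edgeR). Olig2 was nearer to Nkx2-2 (0.317) than to Olig1 (0.395).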

How the data were processed

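RNA-seq of mouse OPCs was deposited as 6 tables of raw counts, whole numbers of read pairs for each gene symbol. Per the labels' protocols, poly(A) libraries that keep strand were sequenced as paired ends. Per the submitters' processing notes, HISAT2 2.2.1, HTSeq 0.12.4, DESeq2 1.26.0 and mm10 were used, with no roles given. The annotation and strand setting used for counting are not stated there. The 5 summary entries of each table, which name no gene and held on average 28.7% of control and 30.7% of knockout read pairs, were left out.

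Groups came from the labels' genotypes. After edgeR's filter on low counts and TMM scaling, the main test was edgeR's quasi-likelihood test (edgeR 4.0.16, R 4.3.3), two-sided, with Benjamini-Hochberg adjustment over all 15906 tested genes and a call at an adjusted p under 0.05. The members are defined by symbol alone, but they and the lists were chosen with earlier results of these data known. Both groups carry the replicate numbers 1, 2 and 3. Between same-numbered libraries, each gene's deviations from its group mean (log2 CPM) correlated across genes at 0.712, 0.682 and 0.654, and genes are not independent replicates. The numbers were therefore treated as pairs, and the same model was fitted with the number as a block. Its biological coefficient of variation was 0.104, against 0.315 without it, at 2 and 4 residual degrees of freedom. The genes named from a list are the up to 3 tested ones of smallest blocked p, and all 4 Id genes. Some genes that this rule names are not reported here. The nearest patterns named are 5 each for Olig1, Olig2 and Nkx2-2, passing over predicted models. Alternatives were other scalings and filters, DESeq2 1.42.0, limma-voom (limma 3.58.1), a correction in 20 bins of GC content, and left-out libraries. Exon lengths, GC content and coordinates came from GENCODE M21 (GRCm38), matched by symbol.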

Additional observations from a re-analysis of the deposited data

Results flagged for a closer look

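Read pairs outside the gene counts were more frequent in the knockout, with no overlap between the groups, for 3 kinds of entry. Pairs in no gene made up 19.7% of control and 20.8% of knockout read pairs on average, pairs of low alignment quality 3.11% and 3.83%, and unaligned pairs 1.03% and 1.25%. Their part in the values of the 8 genes was not tested.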

How the results depend on the processing

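Nearly all calls needed the replicate block, and DESeq2 without it called 20 genes. With the block 604 genes were called, and 573 with DESeq2 size factors, 502 with library totals, 536 with upper quartile scaling, 1034 with no filter on low counts, 435 with a mean of at least 5 CPM, 671 with DESeq2, 712 with limma-voom and 386 with GC correction. Without the pair numbered 1, 2 or 3 it was 444, 521 and 174. The number of members called with the block was 1, also 1 with DESeq2 size factors, DESeq2 and limma-voom and without the pair numbered 3, and 2 with no filter (Olig2 and Tcf3) and without the pair numbered 1 (Olig2 and Nkx2-2). It was 0 in the other blocked settings. No scaling moved the median of all genes by more than 0.03 on the log2 scale.

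Olig2, Nkx2-2, Tcf3 and Tcf4 kept the sign of their log2 fold change in all blocked settings. Values near 0 did not. Olig1 was at 0.01 without the block, and at -0.0048 with limma-voom, -0.0030 with the block, and, with the block, -0.0026 with DESeq2 size factors, -0.0075 with no filter, -0.0023 with DESeq2, and -0.017 and -0.0032 without the pairs numbered 1 and 3. Nkx6-2 was at -0.14 without the block, and at 0.13 with limma-voom, 0.030 with the block, and, with the block, 0.031 with DESeq2 size factors, 0.055 with library totals and with upper quartile scaling, 0.030 with no filter, 0.10 with DESeq2, 0.17 with GC correction and 0.78 without the pair numbered 3. Tcf12 was at 0.00 without the block, and at 0.025 with library totals, 0.026 with upper quartile scaling and 0.018 with a mean of at least 5 CPM. With the block it was at 0.021, 0.020 and 0.014 in those settings, and at 0.018 and 0.0020 without the pairs numbered 2 and 3. With single libraries left out and no block, log2 fold changes ranged from -0.83 to 0.070 for Nkx2-2, from -0.58 to 0.40 for Nkx6-2, from -0.42 to 0.41 for Olig1, from -1.17 to 0.093 for Olig2, from -0.18 to 0.15 for Tcf12 and from -0.24 to 0.086 for Tcf4. The log2 ratio of Id to E-protein counts then differed by -0.25 to 0.13. The causes of these changes were not tested. The correlations given under the processing bear on the pairing. For the count ratios, the mean difference is the same with and without pairs by construction, so the paired form is no check on its size. With single libraries left out, the log2 ratio of Olig2 to Olig1 counts differed by -0.72 to -0.32.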
